A study of Mus musculus with 24 samples.

Results

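Endothelial cells sorted from the tibialis anterior muscle of mice on day 8 after cardiotoxin injury were compared with endothelial cells sorted on day 4 after the same injury. The members were chosen by sample title, which gave 3 arrays of day 8 and 3 arrays of day 4, 6 of the 24 arrays of the series. Cardiotoxin is a snake venom toxin that lyses muscle fibres, after which the tissue is cleared by leukocytes and rebuilt by satellite cells, the stem cells of muscle. The muscles were minced and digested with enzymes, and the endothelial cells were taken by flow cytometry as CD45-negative cells that carried Sca1, CD34 and CD31. All mice of both groups were injured, and the titles give biological replicates. The series also holds endothelial cells of day 0, taken before injury, and of day 2, and satellite cells of all 4 days, with 3 arrays in each of the 8 groups. The strain, sex and age of the mice, and whether muscles of several mice were pooled, are not given in the sources used here.

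Endothelium lines every vessel and is not uniform. Capillary endothelium of muscle carries fatty acids and glycerol from blood to fibre, while the endothelium of venules displays the adhesion molecules and chemokines through which leukocytes leave the blood. After injury, endothelial cells divide and sprout under VEGF-family ligands, angiopoietins and Notch signals, and they switch on inflammatory and adhesion genes. Bone morphogenetic proteins and chemokines released by activated vessels act on neighbouring cells. Setting day 8 against day 4 asks which of these programmes had receded, and which had returned, between the phase of strong leukocyte infiltration and the phase of fibre growth.

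RNA from picogram amounts was amplified, labelled with biotin and hybridised to single-colour gene arrays. A level below is the deposited log2 value of a gene's probe set, and a difference is the day 8 mean minus the day 4 mean on the same log2 scale. The medians of the 6 arrays lay between 4.18 and 4.30, and a level near them is close to background, where differences are understated. The upper quartiles were 6.17, 5.99 and 5.98 on the day 8 arrays, against 6.09, 6.10 and 6.14 on the day 4 arrays. The number of arrays limits the precision, and levels of different genes are not compared. The cell type field of the labels goes against the title on all 6 arrays and the time point field on 4 of them, so the titles were checked against markers. Cdh5, the vascular endothelial cadherin, lay between 11.87 and 11.94 on day 8 and between 11.70 and 11.93 on day 4. In satellite cells it averaged 10.07 ± 0.40 on day 8 and 9.76 ± 0.41 on day 4, above 8.05 ± 0.16 on day 0 (SD, n = 3 each). Pecam1, which encodes CD31, was 11.44, 11.52 and 11.55 on day 8, against 11.41, 11.70 and 11.58 on day 4. Cd34 was 11.35, 11.29 and 11.34 on day 8, against 11.31, 11.39 and 11.29 on day 4. Itga7, the integrin chain used to sort satellite cells, averaged 5.05 ± 0.48 on day 8 and 4.79 ± 0.13 on day 4, and the 3 arrays of each group overlapped. Pax7, the transcription factor gene of satellite cells, was at 4.83, 5.01 and 5.21 on day 8, against 4.60, 5.45 and 5.65 on day 4, also with overlap. These markers bear on the cell type and cannot check the day. The array numbers rise with the day, so the day and the order of the arrays cannot be told apart.

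Leukocyte transcripts differed between the groups in spite of the CD45-negative sort. They are given here because leukocytes are known to express several of the genes below. Of 26 macrophage and pan-leukocyte markers, 25 passed the filter on dim probe sets, and all 25 had a negative difference, with a median of -1.76. None of the 25 was called in limma's test, while 18 had an unadjusted p under 0.05. The mean level of the 25 markers was 5.36, 4.78 and 5.71 on the day 8 arrays, against 8.17, 6.84 and 6.14 on the day 4 arrays. The groups did not overlap, and replicate 1 of day 4 stood highest. Ptprc, which encodes CD45, was 3.43, 2.99 and 4.07 on day 8, against 6.88, 5.97 and 4.04 on day 4 (difference -2.14, SE 0.79, adjusted p = 0.42). Every day 8 array and replicate 3 of day 4 were therefore below the lowest median of the 6 arrays for this gene. Tyrobp, the signalling adaptor of myeloid receptors, was 6.83, 4.76 and 7.29 on day 8, against 10.00, 8.85 and 8.32 on day 4, with no overlap and an adjusted p of 0.077. In such sorted bulk samples, fewer cells of a type and less RNA per cell cannot be told apart.

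A gene was called where its difference was 1 or more in size and its adjusted p under 0.05. The comparison called 17 genes, which is 0.121% of the 14064 genes tested. On day 8, 4 genes had risen (0.0284%) and 13 had fallen (0.0924%) relative to day 4. The genes that rose were led by Btnl9, a gene of capillary endothelium. Those that fell include the chloride channel accessory gene Clca3a1, the myeloid receptor gene Lilrb4a, Fjx1, Cmah and the ligand genes Bmp2, Pgf and Ccl2. At an unadjusted p under 0.05 there were 1140 genes (8.11%), of which 477 were higher (3.39%) and 663 lower (4.71%) on day 8. The median difference over all genes tested was 0.01. The count rested on few arrays: without replicate 3 of day 4 it was 8, with 1 higher and 7 lower, and without replicate 3 of day 8 it was 8, with 2 higher and 6 lower. Without replicate 1 of day 4, 1 gene was called higher, and without replicate 2 of day 4, 2 were. Outside the 6 arrays, the fit without replicate 2 of satellite day 2 called 30 genes, and that without replicate 3 of endothelial day 2 called 7 genes higher. With every array centred on its median, 8 genes were called higher and 13 lower. A run chosen after the data were seen left out the array of each group with the most leukocyte transcripts, replicate 1 of day 4 and replicate 3 of day 8. It called 6 genes, all of them among the 17: Btnl9 higher, and Bmp2, Clca3a1, Cmah, Fjx1 and Lilrb4a lower. With 1 array fewer in each group, the loss of arrays and the loss of leukocyte transcripts cannot be told apart in this count.

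**Figure D1:**
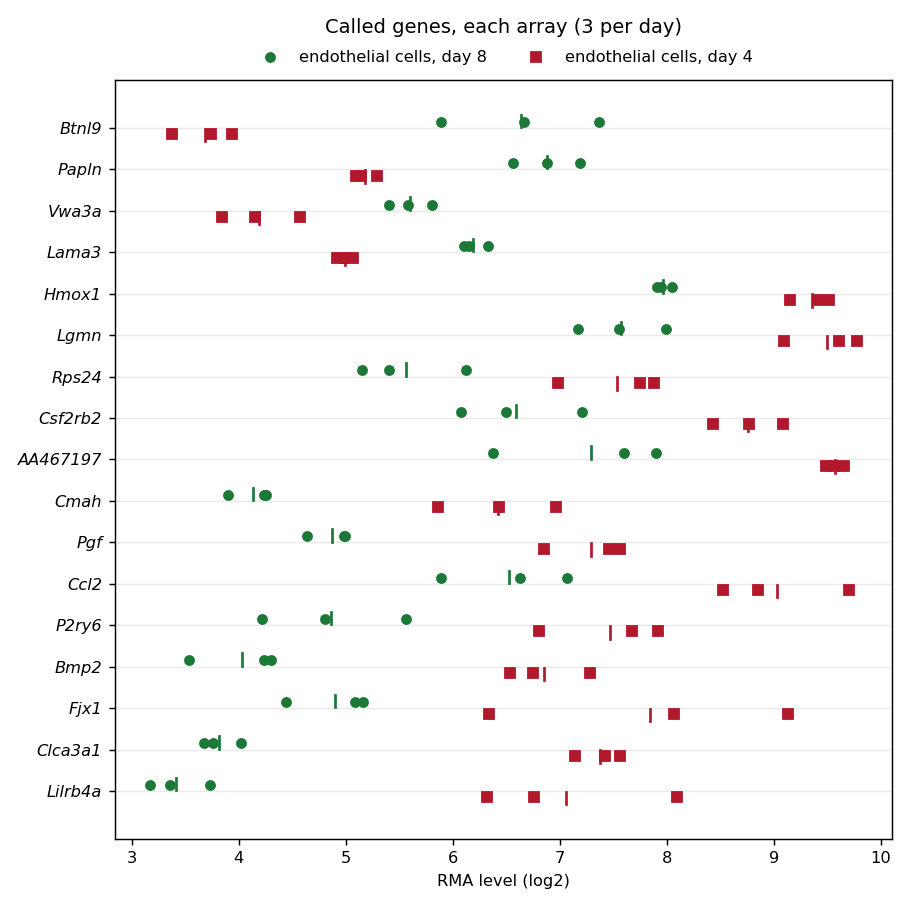
Level of each of the 17 called genes (log2, horizontal axis) on the 3 arrays of day 8 (green circles) and the 3 arrays of day 4 (red squares), with vertical ticks at the group means. The upper 4 genes were higher on day 8 and the lower 13 were lower on day 8, and for none of the 17 do the groups overlap.

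Btnl9 showed the largest measured rise. It encodes a butyrophilin-like membrane protein and is used as a marker of capillary endothelium. Its level was 7.37, 5.89 and 6.67 on day 8, against 3.37, 3.93 and 3.74 on day 4. The day 4 arrays were all below the medians of the arrays, and the lowest day 8 array stood clear of the highest of day 4. The difference was 2.96 (SE 0.36, 95% interval 2.22 to 3.70, adjusted p = 0.000334), and the call was kept in every alternative run. On the earlier days Btnl9 averaged 7.10 ± 0.75 on day 0 and 4.35 ± 0.32 on day 2.

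The other 3 genes that rose had smaller differences. Papln encodes papilin, a glycoprotein of the extracellular matrix. It was at 7.19, 6.88 and 6.56 on day 8, against 5.14, 5.29 and 5.09 on day 4, a difference of 1.70 (SE 0.32, adjusted p = 0.0306). Lama3 encodes the alpha 3 chain of laminin, a basement membrane protein. It was at 6.33, 6.15 and 6.10 on day 8, against 4.91, 4.98 and 5.07 on day 4, a difference of 1.20 (SE 0.22, adjusted p = 0.0175). Vwa3a, named for its von Willebrand factor A domain, was at 5.58, 5.41 and 5.80 on day 8, against 4.15, 4.58 and 3.84 on day 4, a difference of 1.41 (SE 0.25, adjusted p = 0.0178). All 4 risen genes had day 4 means less than 1 above the medians of the arrays, so their differences may be understated. The calls of Papln and Lama3 were lost without any 1 of the 6 arrays, with adjusted p-values between 0.0708 and 0.119 for Papln and between 0.0587 and 0.0853 for Lama3. The call of Vwa3a was lost without replicate 1 (adjusted p = 0.0738) or 3 (0.124) of day 4 and without replicate 1 (0.0663) or 3 (0.122) of day 8. In these runs the differences lay between 1.14 and 1.25 for Lama3, 1.55 and 1.86 for Papln, and 1.23 and 1.42 for Vwa3a. Since the groups of these genes did not overlap, leaving out 1 array could not change a sign.

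The genes with the next lowest p-values among those higher on day 8 did not pass the threshold. Gm12002 was at 8.42, 8.61 and 8.41 on day 8, against 5.31, 6.48 and 5.27 on day 4 (difference 2.79, adjusted p = 0.0523). Itih5, of the inter-alpha-trypsin inhibitor heavy chain family, was at 7.45, 7.20 and 7.19 on day 8, against 5.38, 5.56 and 5.76 on day 4 (difference 1.71, adjusted p = 0.0523). Cdh23, a cadherin gene, had a difference of 1.05 with the same adjusted p of 0.0523. Akap5, which encodes an anchor of protein kinase A, differed by 1.61 (adjusted p = 0.0639), Slc26a10, an anion transporter family gene, by 1.70 (0.0967) and Chst15, a sulfotransferase gene of chondroitin sulfate synthesis, by 1.29 (0.106). For each of these 6 genes the 3 arrays of day 8 lay above the 3 of day 4, as did 8.42% of all genes tested.

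Clca3a1, which fell, belongs to the calcium-activated chloride channel regulator family. Clca3a1 was at 3.76, 4.02 and 3.68 on day 8, against 7.57, 7.15 and 7.42 on day 4. The day 8 arrays were all below the medians of the arrays, and the difference of -3.56 (SE 0.42, 95% interval -4.44 to -2.68, adjusted p = 0.000334) is therefore possibly understated. The neighbouring family member Clca3a2 stayed under the filter, at 2.23, 1.98 and 1.99 on day 8, against 2.47, 4.10 and 2.34 on day 4, and signal shared by near-identical copies cannot be separated on the array. Cmah encodes the hydroxylase that makes the sialic acid Neu5Gc in mice. It was at 4.23, 4.25 and 3.90 on day 8, against 5.86, 6.44 and 6.96 on day 4 (difference -2.29, SE 0.28, adjusted p = 0.000334). Fjx1, a mouse homologue of the Drosophila gene four-jointed, was at 4.44, 5.16 and 5.09 on day 8, against 6.34, 8.07 and 9.13 on day 4 (difference -2.95, SE 0.52, adjusted p = 0.0141). The day 4 arrays of Fjx1 were far apart from each other, with replicate 1 the lowest. Its call was lost without replicate 2 (adjusted p = 0.0853) or 3 (0.10) of day 4 and without replicate 1 (0.0763) or 3 (0.0708) of day 8, at differences between -3.04 and -2.31.

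Both secreted ligands of the growth factor list that were called had fallen. Bmp2 encodes bone morphogenetic protein 2, a TGF-beta family ligand. It was at 4.30, 3.54 and 4.23 on day 8, against 6.53, 7.28 and 6.75 on day 4 (difference -2.83, SE 0.39, 95% interval -3.65 to -2.01, adjusted p = 0.00133). The day 8 level of Bmp2 was close to its day 0 mean of 4.15 ± 0.30, and the day 2 mean was 7.76 ± 0.28. Pgf encodes placental growth factor, a ligand of the VEGF receptor FLT1. It was at 4.98, 4.64 and 4.99 on day 8, against 7.46, 6.85 and 7.56 on day 4 (difference -2.42, SE 0.39, adjusted p = 0.00903). Pgf stood higher still on day 2, at 9.03 ± 0.18, and at 4.07 ± 0.39 on day 0. Without replicate 3 of day 4 the difference of Pgf was -2.29 and its adjusted p 0.0587.

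Hmox1, which encodes the inducible heme oxygenase that breaks down heme, was tightly grouped. It was at 7.91, 7.94 and 8.05 on day 8, against 9.16, 9.41 and 9.51 on day 4, and so 2.63-fold lower on day 8 (difference -1.39, SE 0.23, adjusted p = 0.00942). Its mean was 7.66 ± 0.24 on day 0 and 9.79 ± 0.19 on day 2. Without replicate 3 of day 4 the adjusted p of Hmox1 was 0.0587, at a difference of -1.32.

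The remaining genes that fell include several that leukocytes are known to express. Lilrb4a encodes an inhibitory receptor of myeloid cells. Lilrb4a and Clca3a1 both lay below the medians of the arrays on day 8, so the order of their differences is not determined. Lilrb4a was at 3.35, 3.17 and 3.73 on day 8, against 8.09, 6.76 and 6.32 on day 4 (difference -3.64, SE 0.49, 95% interval -4.66 to -2.62, adjusted p = 0.000941). Its day 8 arrays were all below the medians of the arrays, and on day 4 its order over the arrays was that of the leukocyte markers. Ccl2 encodes the chemokine that draws monocytes and is made by both macrophages and activated endothelium. Ccl2 was at 7.07, 6.63 and 5.89 on day 8, against 9.70, 8.85 and 8.53 on day 4, and so 5.65-fold lower on day 8 (difference -2.50, SE 0.41, adjusted p = 0.00942). The call of Ccl2 was lost without replicate 1 of day 4 (difference -2.16, adjusted p = 0.0613) or replicate 3 of day 8 (-2.18, 0.0837).

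Lgmn encodes legumain, a lysosomal protease. Lgmn was at 7.99, 7.55 and 7.17 on day 8, against 9.61, 9.78 and 9.10 on day 4, and so 3.79-fold lower (adjusted p = 0.0141). P2ry6 encodes a receptor for the nucleotide UDP. P2ry6 was at 5.56, 4.22 and 4.80 on day 8, against 7.92, 6.80 and 7.67 on day 4 (difference -2.60, SE 0.50, adjusted p = 0.0331). Csf2rb2 encodes a beta chain of the mouse interleukin 3 receptor. Csf2rb2 was at 6.50, 7.21 and 6.07 on day 8, against 8.43, 9.09 and 8.77 on day 4 (difference -2.17, SE 0.37, adjusted p = 0.0137). It has a near-identical copy, Csf2rb, at 8.81, 9.25 and 8.96 on day 8, against 9.38, 10.02 and 9.62 on day 4, so the split between the copies is uncertain. AA467197 was at 7.60, 7.90 and 6.38 on day 8, against 9.57, 9.49 and 9.66 on day 4 (difference -2.28, SE 0.39, adjusted p = 0.0121). Rps24, a ribosomal protein gene of a family with many processed copies, was at 6.12, 5.15 and 5.40 on day 8, against 7.88, 6.98 and 7.75 on day 4 (adjusted p = 0.0471), and its assignment to this locus is uncertain.

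These calls rested on the arrays to different degrees, and the adjusted p with that array left out is given in brackets. Lgmn lost its call without replicate 1 (0.0679) or 2 (0.0913) of day 4 and without replicate 2 (0.0632) or 3 (0.110) of day 8. P2ry6 lost its call without replicate 1 (0.164) or 3 (0.124) of day 4, without replicate 2 (0.227) or 3 (0.126) of day 8, and without replicate 2 of satellite day 4 (0.0513). Csf2rb2 lost its call without replicate 2 (0.0853) or 3 (0.0587) of day 4 and without replicate 1 (0.0595) or 3 (0.106) of day 8. AA467197 lost its call without replicate 3 of day 4 (0.0587) or of day 8 (0.0956). Rps24 lost its call without replicate 1 (0.190) or 3 (0.160) of day 4, without replicate 2 (0.241) or 3 (0.184) of day 8, and without any 1 of 10 arrays of other groups, at adjusted p-values from 0.0528 to 0.0657. The groups of these 5 genes did not overlap, so leaving out 1 array could not change the sign of a difference.

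The levels of these genes are set beside the leukocyte markers array by array. With 3 arrays per day, the order of arrays cannot show whether a gene moves with the markers. Within day 4, Lilrb4a and Ccl2 were highest in replicate 1 and lowest in replicate 3, the order of the leukocyte marker mean. Within day 8, where the marker mean was highest in replicate 3, Lilrb4a was also highest there, at a level below the medians of the arrays, while Ccl2 was lowest there. On day 4 the other genes called lower, among them Bmp2, Clca3a1 and Fjx1, did not follow the order of the marker mean. Of the genes that leukocytes are known to express, Csf2rb2 was lowest in replicate 1, Lgmn highest in replicate 2 and P2ry6 lowest in replicate 2. Bmp2 and Fjx1 were lowest in replicate 1. Replicate 3 of day 4 had the lowest marker mean of its group, 6.14, which was above all 3 day 8 arrays. On that array Ptprc was below the medians of the arrays and Tyrobp was at 8.32. Every gene called lower was above all 3 day 8 arrays there, which follows from groups that do not overlap for any called gene. The part of the leukocyte transcripts was not tested for any gene called lower, Ccl2, Lgmn, P2ry6 and Csf2rb2 included.

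**Figure D2:**
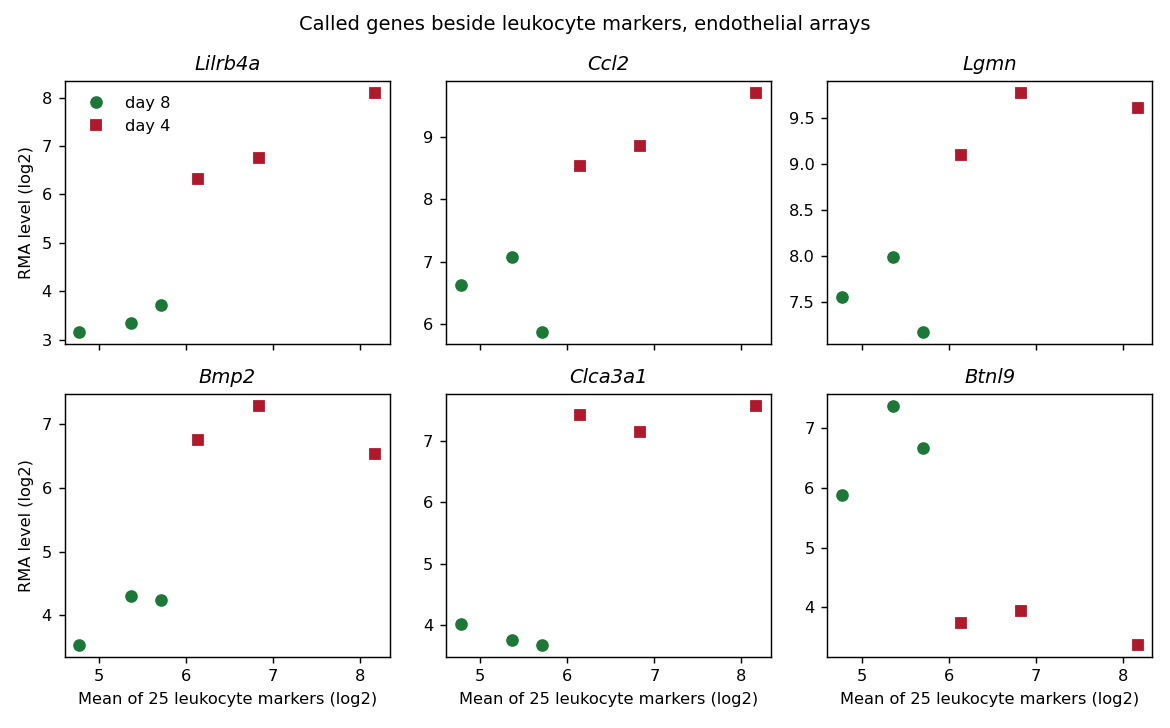
Level of 6 called genes (log2, vertical axis) against the mean level of the 25 macrophage and pan-leukocyte markers on the same array (log2, horizontal axis), for the 3 arrays of day 8 (green circles) and of day 4 (red squares). The day 4 array at 8.17 on the horizontal axis has the highest Lilrb4a and Ccl2, and the lowest Bmp2 of the day 4 arrays.

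The uninjured and day 2 arrays place these levels in the course of regeneration. The comparison of day 2 with day 0 shares no array with that of day 8 and day 4. It called 947 genes (6.73%), of which 524 were higher (3.73%) and 423 lower (3.01%) on day 2. Of the 13 genes lower on day 8 than on day 4, 11 had been called higher on day 2 than on day 0, which is 84.6% of the 13 and 2.1% of the 524. Cmah and Fjx1 were the exceptions, with day 2 minus day 0 differences of 0.14 (adjusted p = 0.847) and 1.08 (adjusted p = 0.223). Of the 4 genes higher on day 8, Btnl9, Papln and Vwa3a had been called lower on day 2, which is 75% of the 4 and 0.709% of the 423. These shares are descriptions of small lists.

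The called genes differed in how their day 8 level stood to day 0. Both contrasts with day 0 share arrays with the comparison of day 8 and day 4, and the values are given side by side only. Cmah averaged 3.99 ± 0.09 on day 0, 4.13 ± 0.25 on day 2, 6.42 ± 0.55 on day 4 and 4.13 ± 0.20 on day 8. The day 4 mean stood apart from those of the other days. Clca3a1 averaged 3.67 ± 0.48 on day 0, 5.16 ± 0.81 on day 2, 7.38 ± 0.21 on day 4 and 3.82 ± 0.18 on day 8. Fjx1 averaged 4.90 ± 0.04 on day 0, 5.98 ± 0.59 on day 2, 7.85 ± 1.41 on day 4 and 4.90 ± 0.40 on day 8. For these 3 genes, day 4 held the highest mean of the 4 days, and the day 8 minus day 0 differences of 0.14, 0.15 and -0.01 (Cmah, Clca3a1 and Fjx1) did not pass the test.

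Ccl2 and AA467197 were still called above day 0 on day 8, as were 1.11% of all genes tested. Ccl2 averaged 4.36 ± 0.65 on day 0, 9.09 ± 0.67 on day 2, 9.03 ± 0.61 on day 4 and 6.53 ± 0.60 on day 8, with a day 8 minus day 0 difference of 2.17 (SE 0.41, adjusted p = 0.0049). AA467197 averaged 3.67 ± 0.71 on day 0, 10.40 ± 0.11 on day 2, 9.57 ± 0.08 on day 4 and 7.29 ± 0.81 on day 8, with a day 8 minus day 0 difference of 3.62 (SE 0.39). Papln had its highest mean on day 8. It averaged 5.83 ± 0.52 on day 0, 4.04 ± 0.55 on day 2, 5.18 ± 0.10 on day 4 and 6.88 ± 0.31 on day 8. Its day 8 minus day 0 difference of 1.05 had an adjusted p of 0.0984. Lama3, at 5.32 ± 0.20 on day 0, 5.05 ± 0.40 on day 2, 4.99 ± 0.08 on day 4 and 6.19 ± 0.12 on day 8, had its highest mean on day 8, with a day 8 minus day 0 difference of 0.87 (adjusted p = 0.0336) that is under the minimum of 1.

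**Figure D3:**
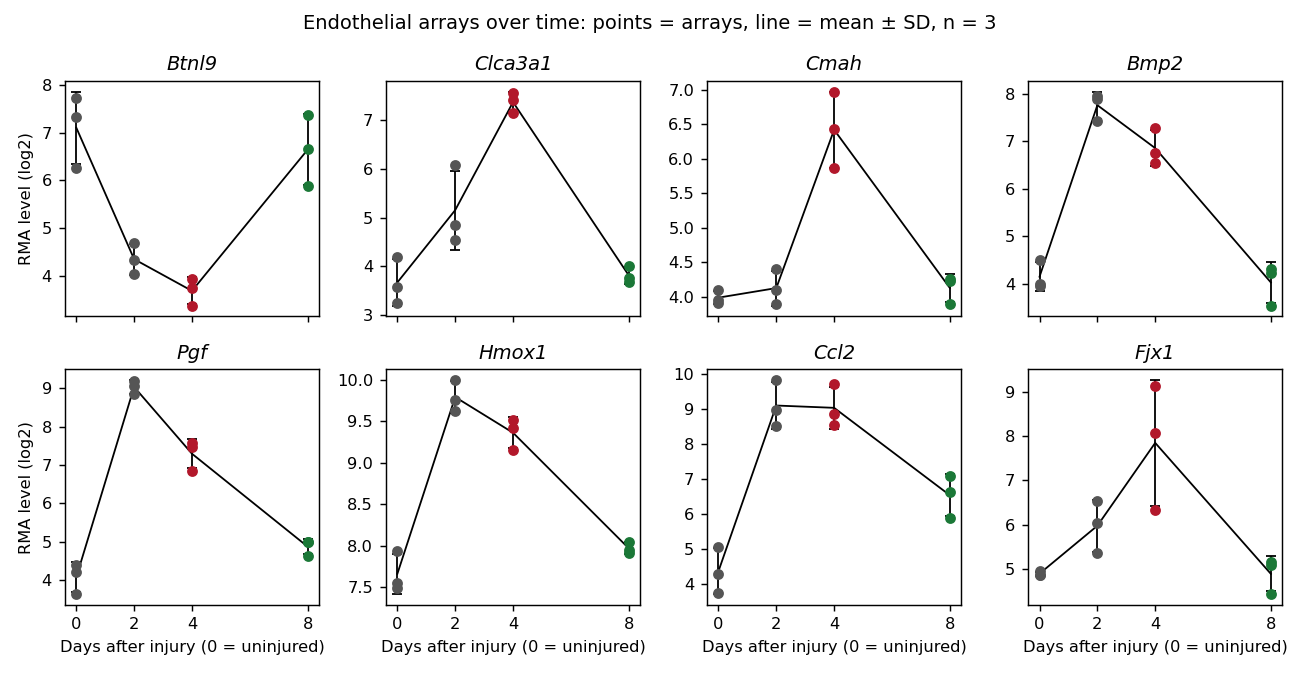
Level of 8 genes in endothelial cells (log2, vertical axis) by day after injury (horizontal axis, 0 is uninjured), with points for arrays (day 4 red, day 8 green, days 0 and 2 grey) and a line through the means with SD bars, n = 3 per day. Btnl9 has its lowest mean on day 4 and the other 7 genes have higher means on day 4 than on day 8.

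The same interval was sampled in satellite cells of the regenerating muscle, which allows a test of whether a change in endothelial cells differed from that in satellite cells. Satellite cells called 236 genes between day 8 and day 4 (1.68%). The interaction contrast, the endothelial difference minus the satellite difference, called 31 genes (0.22%), of which 4 are among the 17: Fjx1, Bmp2, Clca3a1 and Btnl9. For Fjx1 the endothelial difference was -2.95 and the satellite difference 1.06, an interaction of -4.01 (SE 0.73, adjusted p = 0.0185). For Bmp2 the differences were -2.83 and 0.32, an interaction of -3.15 (SE 0.56, adjusted p = 0.0147). For Btnl9 they were 2.96 and 0.17, an interaction of 2.79 (SE 0.51, adjusted p = 0.0185), and Btnl9 was between 3.70 and 4.09 on the satellite arrays of day 8 and between 3.38 and 3.99 on those of day 4. For Clca3a1 they were -3.56 and -0.67, an interaction of -2.89 (SE 0.60, adjusted p = 0.0426). On satellite day 4, Fjx1, Bmp2 and Clca3a1 averaged 4.22, 4.58 and 3.93, and the medians of these arrays lay between 4.25 and 4.38. Levels so close to background limit the fall that can be measured in satellite cells. Clca3a1 was at 5.27, 3.48 and 3.04 on the satellite day 4 arrays, so its satellite difference rests mainly on replicate 1. Btnl9 was below the array median on every satellite array of day 4 and day 8. The labels do not say whether the cell types came from the same mice. The numbers in the sample descriptions match between the cell types for each replicate of days 4 and 8. The interaction test treated all arrays as independent, and a pairing of the cell types was not checked.

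For the other 13 genes the interaction had adjusted p-values over 0.05, which does not show that the cell types changed alike. AA467197 was also called in satellite cells, with a difference of -2.28 in endothelial cells and -2.69 in satellite cells, and so was Pgf, with -2.42 in endothelial cells and -1.72 in satellite cells. Lilrb4a differed by -3.64 in endothelial cells and by -1.66 in satellite cells (adjusted p = 0.0924 there). Ccl2 differed by -2.50 in endothelial cells and by -1.51 in satellite cells (adjusted p = 0.0654 there). The macrophage and pan-leukocyte markers were also lower in satellite cells on day 8, with a median difference of -1.37. Their mean level there was 6.69, 5.26 and 6.66 on day 8, against 8.15, 7.54 and 6.98 on day 4. Endothelial transcripts were also measured there, with Cdh5 at 8.05 on satellite day 0, 9.76 on day 4 and 10.07 on day 8. The lists of endothelial identity and capillary genes given below had satellite medians of 0.37 and 0.74 for day 8 minus day 4. The part of leukocyte and of endothelial transcripts in the satellite differences was not tested. The interaction calls were sensitive to single arrays, and the adjusted p with that array left out is given in brackets. Bmp2 lost its call without replicate 2 of endothelial day 4 (0.0602), of endothelial day 8 (0.0647), of satellite day 4 (0.0522) or of satellite day 8 (0.0589). Fjx1 lost its call without replicate 2 of endothelial day 4 (0.0613), of satellite day 4 (0.0576) or of satellite day 8 (0.0656), and without replicate 1 of endothelial day 8 (0.0600). Btnl9 lost its call without replicate 1 (0.0552) or 3 (0.0571) of endothelial day 8 or replicate 2 of satellite day 8 (0.0649). Clca3a1 lost its call without any 1 of 16 arrays, at adjusted p-values from 0.0502 to 0.120. It was also lost without a filter on dim probe sets (0.0623) and with the arrays centred on their medians (0.0637), and in 23 of 37 alternatives in all. Counts of interaction calls without 1 of the 6 endothelial arrays of day 8 and day 4 ran from 15 to 27.

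**Figure D4:**
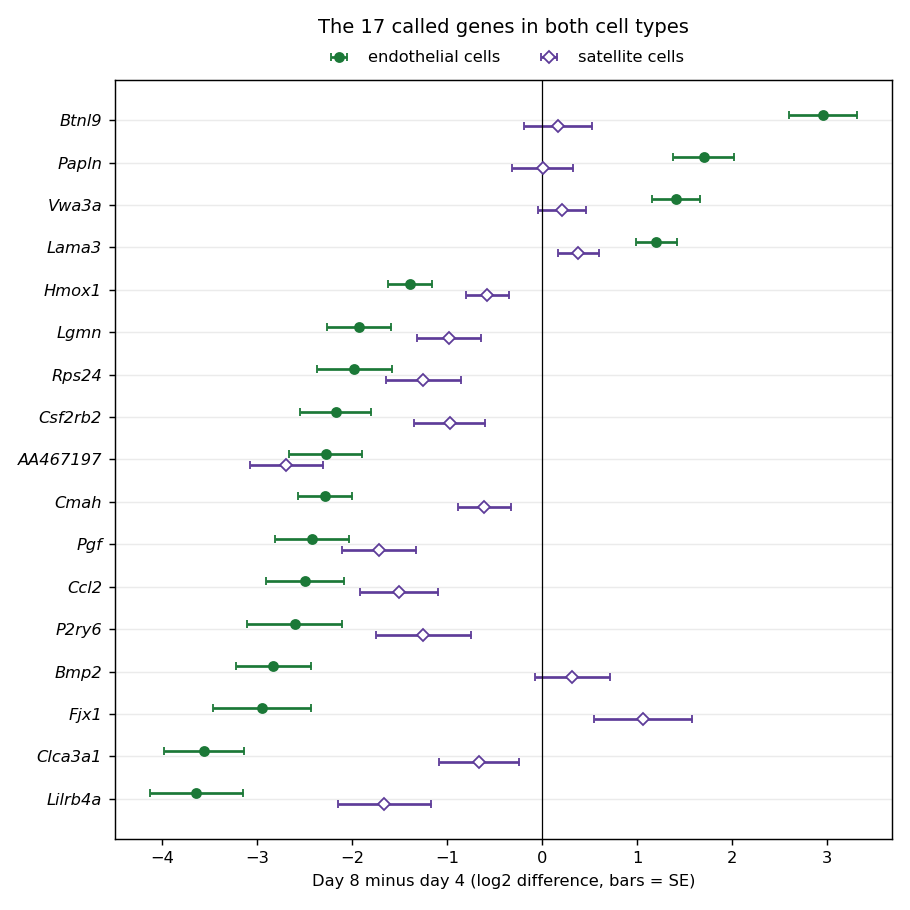
Difference of day 8 minus day 4 (log2, horizontal axis) of the 17 called genes in endothelial cells (filled green circles) and in satellite cells (open violet diamonds), with bars of 1 SE. Btnl9, Bmp2, Fjx1 and Clca3a1 passed the interaction test, and AA467197 and Pgf were also called in satellite cells.

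Lists of genes with known roles describe the comparison beyond the 17 calls. The lists were chosen with earlier results of these data known, so their counts and medians are descriptions and add no support to the calls. A list is given by its called members, its median difference and the number of members whose groups did not overlap, for which the shares over all genes tested are 8.42% with day 8 above and 7.87% with day 8 below. The list named capillary metabolic holds genes of fatty acid and glycerol handling together with other genes of capillaries, such as Btnl9, Timp4 and Tcf15. Its values therefore do not describe fatty acid handling alone. Of 19 tested, 1 (Btnl9) was called and 15 had a positive difference, with a median of 0.45. For 10 the day 8 arrays all lay above those of day 4, and for 1 they all lay below. That was the fatty acid transporter gene Slc27a4, named after its value of -0.62 was seen. Timp4, an inhibitor of matrix metalloproteinases, was at 8.38, 8.24 and 8.32 on day 8, against 6.25, 6.66 and 6.17 on day 4 (difference 1.96, adjusted p = 0.218). Aqp7, the glycerol channel gene, was at 10.30, 10.22 and 9.73 on day 8, against 9.22, 8.90 and 8.64 on day 4 (difference 1.16, adjusted p = 0.364). Tcf15, a transcription factor gene, was at 8.28, 8.31 and 8.08 on day 8, against 6.63, 7.18 and 7.50 on day 4 (difference 1.12, adjusted p = 0.307). The mean level of the list was 8.68, 8.41 and 8.41 on day 8, against 7.79, 8.01 and 7.94 on day 4, and it was 9.06, 9.30 and 9.12 on day 0. The day 8 arrays were thus above all arrays of day 4 and below all arrays of day 0.

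Venous genes stood on the other side. None of the 12 tested was called, 11 had a negative difference with a median of -0.83, and for 8 the day 8 arrays all lay below those of day 4. Ackr1, the venular receptor that binds and presents chemokines, was at 6.41, 7.70 and 7.49 on day 8, against 8.56, 8.98 and 9.05 on day 4 (difference -1.66, adjusted p = 0.332). Vcam1, the ligand of leukocyte integrins, was at 6.09, 7.35 and 6.30 on day 8, against 7.59, 8.35 and 8.44 on day 4 (difference -1.55, adjusted p = 0.136). Lrg1, a secreted glycoprotein gene of inflamed vessels, was at 7.77, 8.48 and 8.50 on day 8, against 9.49, 9.82 and 10.09 on day 4 (difference -1.54, adjusted p = 0.106). Vwf, the von Willebrand factor gene, differed by -1.30 (adjusted p = 0.380). The mean of the venous list was 7.72, 8.21 and 8.16 on day 8, against 8.62, 8.94 and 9.04 on day 4. Among the day 4 arrays it was lowest in replicate 1, where the leukocyte marker mean was highest. The part of leukocyte transcripts in this list was not tested.

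Leukocyte adhesion genes, a list that shares Ackr1, Vcam1 and other members with the venous one, had no called member among 13, a median of -0.26 and 6 members with the day 8 arrays all below those of day 4. Sele, the E-selectin gene of activated endothelium, was at 6.31, 6.38 and 6.69 on day 8, against 7.81, 7.88 and 7.91 on day 4 (difference -1.41, adjusted p = 0.334). Selp, the P-selectin gene, was at 7.59, 8.63 and 8.33 on day 8, against 8.74, 9.72 and 9.57 on day 4 (difference -1.16, adjusted p = 0.556).

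**Figure D5:**
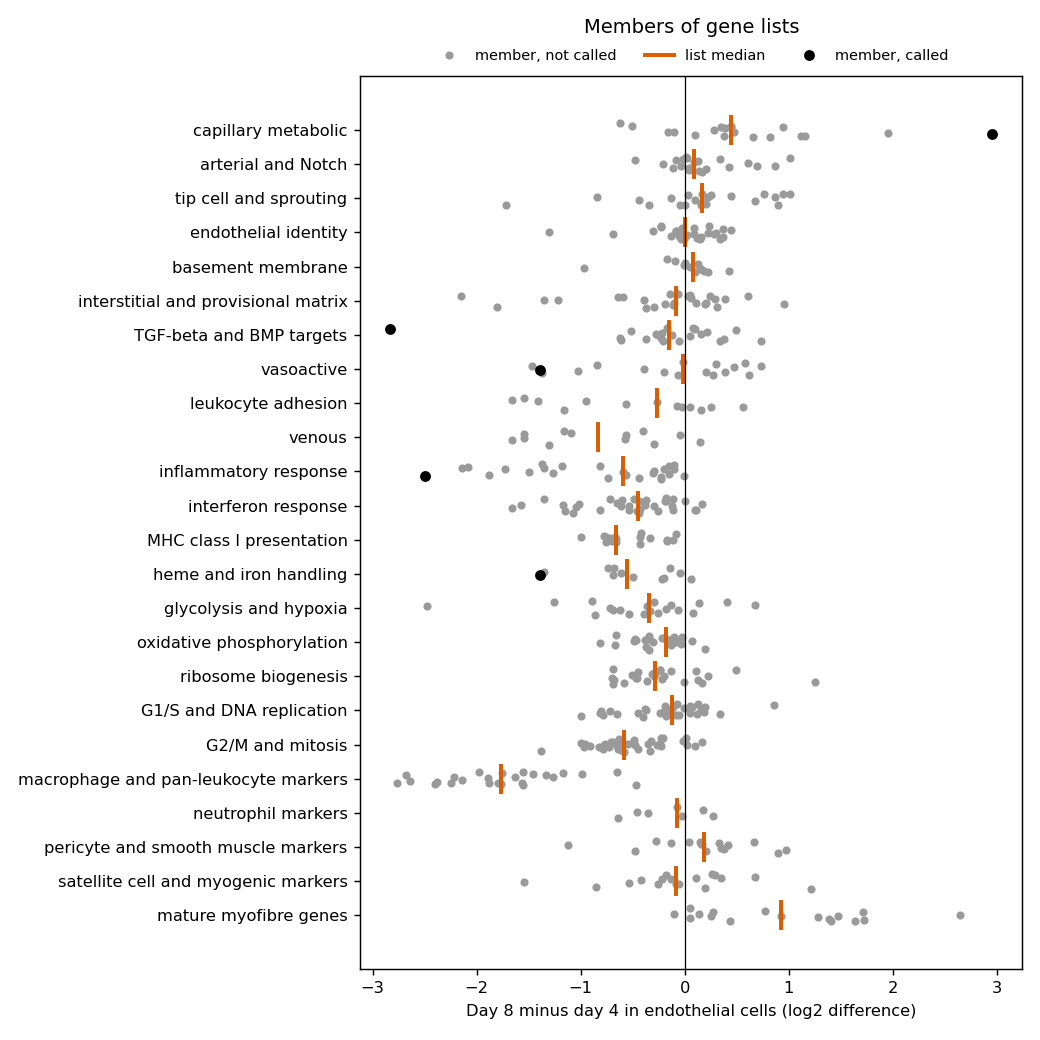
Difference of day 8 minus day 4 in endothelial cells (log2, horizontal axis) for the tested members of 24 gene lists, with grey points for members that were not called, black points for called members and orange bars at the list medians. The medians run from -1.76 for macrophage and pan-leukocyte markers to 0.93 for mature myofibre genes, against 0.01 over all genes tested.

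Genes that define endothelium as such differed in both directions without a call. Of 28 tested, 14 had a positive and 14 a negative difference, the median was 0.01 and the range -1.30 to 0.45. For 4 the day 8 arrays all lay above those of day 4, and for 3 they all lay below, among them Vwf with the lowest difference. Kdr, the main VEGF receptor gene, was at 10.27, 10.28 and 10.02 on day 8, against 9.81, 9.72 and 9.70 on day 4 (difference 0.45, adjusted p = 0.813). Of 23 tip cell and sprouting genes none was called, with a median of 0.17, 6 members with day 8 all above and 1 with day 8 all below. That one was Angpt2, the angiopoietin ligand released by activated endothelium, at 6.61, 5.37 and 6.45 on day 8, against 7.86, 7.67 and 8.07 on day 4 (difference -1.72, adjusted p = 0.348). Dll4, the Notch ligand gene of tip and arterial cells, was at 8.58, 8.33 and 8.30 on day 8, against 7.66, 6.94 and 7.58 on day 4 (difference 1.01, adjusted p = 0.520). Rgcc, the next largest positive difference of that list, differed by 0.95 (adjusted p = 0.442). Of 21 arterial and Notch genes none was called, with a median of 0.09, and of 17 genes of the VEGF and angiopoietin axis Pgf alone was called.

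Other signalling and matrix genes were mixed. Of 17 vasoactive genes, Hmox1 was called, and Edn1, which encodes the vasoconstrictor endothelin 1, was at 5.58, 6.60 and 5.72 on day 8, against 7.39, 7.48 and 7.44 on day 4 (difference -1.47, adjusted p = 0.366). Ace, the angiotensin-converting enzyme gene, differed by -1.03 (adjusted p = 0.442). Of 22 TGF-beta and BMP genes, Bmp2 was called and the median was -0.15. Of 14 basement membrane genes other than Lama3, which was not in the list, none was called and the median was 0.08. Of 26 interstitial and provisional matrix genes none was called, with a median of -0.08 and 5 members with day 8 all below. Tgfbi, which encodes an adhesive matrix protein, was at 6.13, 6.17 and 6.66 on day 8, against 8.53, 8.66 and 8.22 on day 4 (difference -2.15, adjusted p = 0.0970). Vcan, the versican gene, was at 5.22, 4.87 and 5.29 on day 8, against 6.48, 7.07 and 7.23 on day 4 (difference -1.80, adjusted p = 0.151). Thbs1, the thrombospondin 1 gene, differed by -1.35 (adjusted p = 0.251) and Tnc, the tenascin C gene, by -1.21 (adjusted p = 0.297).

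Genes of G2 and mitosis had mostly negative differences, and those of G1/S and DNA replication went both ways, with no call in either list. Of 37 genes of G2 and mitosis, 33 had a negative difference, the median was -0.58, and for 16 the day 8 arrays all lay below those of day 4. Aurka, the mitotic kinase gene, was at 5.30, 5.22 and 4.74 on day 8, against 7.00, 6.51 and 5.90 on day 4 (difference -1.38, adjusted p = 0.0523). Kif11, a spindle motor gene, was at 5.65, 4.81 and 4.96 on day 8, against 6.45, 6.16 and 5.80 on day 4 (difference -1.0, adjusted p = 0.383). Mki67, the proliferation marker Ki-67, was at 7.71, 7.25 and 6.72 on day 8, against 8.16, 8.03 and 7.82 on day 4 (difference -0.78, SE 0.33, adjusted p = 0.511). The mean of the list was 5.86, 5.81 and 5.56 on day 8, against 6.51, 6.32 and 5.96 on day 4 and 4.06, 3.96 and 4.00 on day 0, so that day 8 lay between the other groups with no overlap. Of 31 genes of G1/S and DNA replication, 10 had a positive and 21 a negative difference, with a median of -0.12, 1 member with day 8 all above and 4 with day 8 all below. The one above was Ccnd1, the cyclin D1 gene, at 9.21, 8.73 and 9.24 on day 8, against 8.33, 7.86 and 8.41 on day 4 (difference 0.86, adjusted p = 0.334). Rrm2, a ribonucleotide reductase subunit gene, was at 5.78, 5.36 and 5.96 on day 8, against 6.86, 6.51 and 6.73 on day 4 (difference -0.998, adjusted p = 0.236). The leukocyte markers were also lower on day 8, and their part in these levels was not tested.

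Some promoters of the G2 and mitosis list carry known cell cycle elements, and Kif11 and Mki67 are shown because both are named above and hold them. Promoter sequences are the 250 bases before the gene's start in RefSeq, build GRCm38.p6, written 5′ to 3′ on the gene's strand. The motifs searched, on both strands, were the cell cycle genes homology region (TTTGAA or TTCGAA) and the CCAAT box (CCAAT), which do not overlap each other, and capitals mark both. The Kif11 stretch is chr19:37376132-37376381 on the plus strand and the Mki67 stretch chr7:135716380-135716629 on the minus strand.
Kif11: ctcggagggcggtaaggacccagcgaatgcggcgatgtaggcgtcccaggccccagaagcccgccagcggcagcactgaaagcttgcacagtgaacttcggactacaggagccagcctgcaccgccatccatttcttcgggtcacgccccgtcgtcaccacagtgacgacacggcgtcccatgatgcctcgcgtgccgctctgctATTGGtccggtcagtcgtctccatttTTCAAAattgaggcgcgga
Mki67: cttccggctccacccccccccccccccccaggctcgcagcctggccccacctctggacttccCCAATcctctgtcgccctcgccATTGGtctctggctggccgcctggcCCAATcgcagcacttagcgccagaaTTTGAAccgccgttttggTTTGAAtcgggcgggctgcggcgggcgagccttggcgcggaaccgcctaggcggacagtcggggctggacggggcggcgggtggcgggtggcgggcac
Of the 31 members with a promoter in the table, 13 (41.9%) held a cell cycle genes homology region, against 19.6% of all 27025 promoters, and 24 (77.4%) held a CCAAT box, against 37.5% of all. A match is a run of letters and not evidence of binding in these cells.

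Interferon-inducible genes and MHC class I genes were also lower on day 8 as lists, again with no call. Of 34 interferon response genes 30 had a negative difference, the median was -0.44, and for 12 the day 8 arrays all lay below those of day 4. Igtp, an interferon-inducible GTPase gene, was at 8.04, 7.88 and 7.85 on day 8, against 8.33, 10.35 and 10.07 on day 4 (difference -1.66, adjusted p = 0.348). Gbp2, a guanylate-binding protein gene, was at 8.09, 8.23 and 8.46 on day 8, against 8.69, 10.20 and 9.95 on day 4 (difference -1.36, adjusted p = 0.531). Cxcl10, an interferon-inducible chemokine gene, was at 7.02, 7.26 and 7.50 on day 8, against 8.09, 8.57 and 8.63 on day 4 (difference -1.17, adjusted p = 0.251). Replicate 1 of day 4 was the lowest of its group for all 3 genes, and for Igtp and Gbp2 it lay closer to day 8 than to the other day 4 arrays. Zbp1, a sensor of nucleic acids, differed by -1.57 (adjusted p = 0.426). All 17 MHC class I presentation genes had a negative difference, with a median of -0.66, 7 members with day 8 all below, and values from -0.99, for H2-T22, to -0.08. The mean of the interferon list was 7.37, 7.44 and 7.35 on day 8, against 7.71, 8.19 and 7.91 on day 4. It was 6.84, 6.94 and 8.63 on day 0, where replicate 3 stood apart from the others.

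The promoters of Igtp, Gbp2 and Cxcl10 are shown because these 3 genes are described above and hold the core of the interferon-stimulated response element. The motif searched, on both strands, was GAAA, any 2 bases and GAAA again, and capitals mark it. The stretches, again the 250 bases before the start in RefSeq build GRCm38.p6, are chr11:58199306-58199555 on the plus strand for Igtp, chr3:142620413-142620662 on the plus strand for Gbp2 and chr5:92348890-92349139 on the minus strand for Cxcl10.
Igtp: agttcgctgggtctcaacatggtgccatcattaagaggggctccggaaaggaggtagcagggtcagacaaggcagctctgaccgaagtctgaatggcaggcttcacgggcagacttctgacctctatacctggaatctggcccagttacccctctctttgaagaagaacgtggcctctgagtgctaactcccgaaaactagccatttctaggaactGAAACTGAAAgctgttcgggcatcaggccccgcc
Gbp2: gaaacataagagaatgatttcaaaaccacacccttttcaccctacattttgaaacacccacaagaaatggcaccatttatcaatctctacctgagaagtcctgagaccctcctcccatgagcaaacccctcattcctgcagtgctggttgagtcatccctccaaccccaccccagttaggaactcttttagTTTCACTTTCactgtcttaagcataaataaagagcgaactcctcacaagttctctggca
Cxcl10: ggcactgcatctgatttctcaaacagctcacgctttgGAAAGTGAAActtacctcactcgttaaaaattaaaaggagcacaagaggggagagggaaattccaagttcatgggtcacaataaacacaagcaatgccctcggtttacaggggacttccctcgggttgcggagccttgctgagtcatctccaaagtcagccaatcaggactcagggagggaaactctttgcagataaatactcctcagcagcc
Of the 24 list members with a promoter in the table, 14 (58.3%) held the motif in at least 1 promoter, against 3.5% of all 27025 genes of the table. The list was built from genes known to respond to interferon, so this share describes the list and not the comparison of days. Of the 17 called genes, 10 had a promoter in the table, and 1 of the 10 held this motif.

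Inflammatory response genes were lower throughout. All 25 tested had a negative difference, with a median of -0.59, and for 14 the day 8 arrays all lay below those of day 4. Ccl2 was the called member. Ccl12, a monocyte chemokine gene, was at 3.44, 3.42 and 2.72 on day 8, against 6.32, 4.98 and 4.69 on day 4 (difference -2.14, adjusted p = 0.275). Ccl7, another monocyte chemokine gene, was at 5.57, 5.01 and 4.65 on day 8, against 7.73, 7.64 and 6.11 on day 4 (difference -2.08, adjusted p = 0.246). Cxcl2, a neutrophil chemokine gene, was at 6.14, 6.56 and 6.74 on day 8, against 9.06, 8.09 and 7.95 on day 4 (difference -1.88, adjusted p = 0.218). The mean of the list was 5.81, 5.87 and 5.82 on day 8, against 7.14, 6.58 and 6.40 on day 4, an order within day 4 that is also that of the leukocyte markers. The 9 MHC class II genes tested, which professional antigen-presenting cells express, had a median of -1.06, 3 members with day 8 all below and no call, and Cd74 was at 6.80, 6.64 and 8.49 on day 8, against 9.59, 8.70 and 7.84 on day 4, with overlap. The part of leukocyte transcripts in these lists was not tested.

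The lists of heme and iron, glycolysis and hypoxia, oxidative phosphorylation and ribosome biogenesis genes all had negative medians, with Hmox1 as the one call. Of 12 heme and iron genes the median was -0.55, and for 5 the day 8 arrays all lay below those of day 4, against 7.87% of all genes tested. Cp, the ceruloplasmin gene, was at 4.31, 4.88 and 4.27 on day 8, against 5.15, 6.34 and 6.02 on day 4 (difference -1.35, adjusted p = 0.106). Of 20 glycolysis and hypoxia genes the median was -0.35, with 1 member with day 8 all above and 7 with day 8 all below. Egln3, a prolyl hydroxylase gene of the oxygen-sensing pathway, was at 2.85, 2.90 and 2.49 on day 8, below the medians of the arrays, against 4.45, 5.50 and 5.73 on day 4 (difference -2.48, adjusted p = 0.101). Hif1a, the oxygen-regulated transcription factor gene of that pathway, was at 8.26, 8.39 and 8.46 on day 8, against 8.90, 9.44 and 9.36 on day 4 (difference -0.86, adjusted p = 0.151). Pfkfb3, a regulator of glycolysis in endothelium, differed by -1.26 (adjusted p = 0.529). Over 31 oxidative phosphorylation genes the median was -0.18, and 4 members had day 8 all below and none all above. The mean of that list was 7.88, 7.58 and 7.53 on day 8, against 7.95, 7.85 and 7.91 on day 4. Replicates 2 and 3 of day 8, the arrays with the lowest upper quartiles, were thus lowest here. Over 26 ribosome biogenesis genes the median was -0.29, with 1 member with day 8 all above and 8 with day 8 all below.

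Markers of other cells in the muscle are given for the same arrays. Mature myofibre genes had the highest list median, 0.93 over 17 genes, with none called and 8 whose day 8 arrays all lay above those of day 4. Pvalb, the parvalbumin gene of fast fibres, was at 8.17, 6.77 and 7.48 on day 8, against 4.50, 5.24 and 4.72 on day 4 (difference 2.65, adjusted p = 0.297), and Acta1, skeletal muscle actin, differed by 1.64 (adjusted p = 0.246). The mean of the myofibre list was 6.10, 5.90 and 6.04 on day 8, against 5.34, 4.90 and 4.96 on day 4 and 6.52, 5.77 and 6.04 on day 0. Pericyte and smooth muscle markers had a median of 0.19 over 16 genes, fibro-adipogenic progenitor markers 0.24 over 11, satellite cell and myogenic markers -0.08 over 17 and neutrophil markers -0.07 over 7, with no call in any of them. The 7 neutrophil markers all overlapped between the groups. Since the myofibre list was also higher on day 8, its values stand beside those of the capillary list, and its part in the rise of Btnl9, Papln, Vwa3a and Lama3 was not tested.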

How the data were processed

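Single-colour arrays measured 24 samples of sorted mouse muscle cells. The deposited table holds log2 values that the authors made with RMA, per the submitters' processing notes, for which no version is given there. RMA corrects background, normalizes by quantiles and summarises each probe set, so global shifts between arrays are removed. Symbols came from the annotation of the platform for 23281 of 24479 probe sets, and 1198 unnamed probe sets were not analysed here. Samples were grouped by title.

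Probe sets that exceeded the median of the array on 3 or more arrays were tested, and the brightest per symbol was kept, which left 14064 genes. A limma 3.58.1 fit in R 4.3.3 took the 24 arrays together, gave each group its mean and used eBayes on 16 residual degrees of freedom. Tests were two-sided moderated tests with Benjamini-Hochberg adjustment over all genes tested. Named genes were the 12 largest called rises and falls without overlap (padded to 10 by p-value), up to 4 members per list by absolute difference, called members, sort markers, Cdh5, Pax7 and Mki67, and called interactions; Csf2rb and Clca3a2 were added as copies. Members and the 38 gene lists were chosen with earlier results of these data known. The fit was checked on simulated data. The labels call the replicates biological without naming animals, so p-values measure only the spread between these samples. Alternatives covered the filter, the arrays fitted, replicate blocks, centring, moderation, array weights, probe set averages, the minimum difference and leaving out arrays.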

Additional observations from a re-analysis of the deposited data

Results flagged for a closer look

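For 4 of the 17 genes the difference of day 8 from day 4 differed between endothelial and satellite cells by the interaction test in limma, and each is given by its value without an explanation. Bmp2 had an interaction of -3.15 (SE 0.56, adjusted p = 0.0147), and its endothelial day 8 arrays all lay below those of day 4. Btnl9 had an interaction of 2.79 (SE 0.51, adjusted p = 0.0185), with all 3 endothelial day 8 arrays above those of day 4. Clca3a1 had an interaction of -2.89 (SE 0.60, adjusted p = 0.0426), a call that was lost in 23 of 37 alternatives, where the interaction ran from -3.56 to -2.45. The calls of Bmp2, Btnl9 and Fjx1 were each lost in 5 of the 37. Fjx1 had an interaction of -4.01 (SE 0.73, adjusted p = 0.0185), with an endothelial difference of -2.95 and a satellite difference of 1.06. On satellite day 4, Bmp2, Clca3a1 and Fjx1 were close to background, which limits the fall that can be measured there. Btnl9 was below the array median on every satellite array of day 4 and day 8. The cause of these differences between the cell types was not tested.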

How the results depend on the processing

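Bmp2, Btnl9, Clca3a1 and Lilrb4a were called in all 39 alternatives, and Cmah in all but the fit of the 6 arrays of day 8 and day 4 alone (adjusted p = 0.0501). The fit reported above called 17 genes (4 higher, 13 lower) and 31 interactions. All 17 were among the calls with a stricter filter (above the array median on at least 6 arrays), which called 7 genes higher, with arrays centred on their medians (8 higher), and with array weights (62 genes, 13 higher and 49 lower, and 76 interactions). The 6 arrays alone called 12 genes (4 higher, 8 lower), 5 of them among the 17. A test against a log2 difference of 0.5 called 5 genes (1 higher, 4 lower) and 3 interactions. The replicate numbers did not pair the endothelial arrays of day 8 and day 4. Deviations of same-numbered arrays correlated between -0.04 and 0.01. Of the 3 pairs, 0 were over 0.1 and 0 of 3 were best matched by their own number. Pairing of endothelial with satellite arrays of the same day was not checked. A replicate block within each cell type called 28 genes (22 lower), and a replicate block over all arrays called 38 (8 higher, 30 lower). Leaving out each of the 24 arrays in turn gave 8 to 30 genes (1 to 7 higher, 6 to 24 lower) and 14 to 78 interactions. Alternatives chosen after seeing the data gave 35 genes without the 6 arrays of day 2 (9 higher, 26 lower), and 6 genes (1 higher, 5 lower) with 12 interactions without replicate 1 of day 4 and replicate 3 of day 8. Of the values of single genes, 5 changed sign, all of uncalled sort markers: Cd34 was 0.0406 with centred arrays and ran from -0.0253 to 0.0246 with 1 array left out, Pecam1 ran from -0.133 to 0.0092 and Itga7 from -0.0089 to 0.450. Apart from these, 2625 single-gene values kept their direction and side of the threshold, 135 lost a call and 74 gained one. The interaction of Clca3a1 kept its value of -2.89 under the block within each cell type (adjusted p = 0.0738) and over all arrays (0.0642) and was no longer called. Of 38 list medians, 9 moved by more than 1 SD of the difference between list means over arrays in at least 1 alternative, 32 values in all, most often secreted growth factors (-0.159 to 0.0541), vasoactive genes (-0.121 to 0.152) and glycolysis and hypoxia (-0.410 to -0.218). The heme and iron median ran from -0.574 to -0.417. The medians of 13 lists changed sign, among them endothelial identity (-0.0325 to 0.0676) and G1/S (-0.289 to 0.0947). The cause of these shifts was not tested. Levels near the array medians, where 7 of the 13 lowered genes lay on day 8 and all 4 raised genes on day 4, limit how large a difference can be measured.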
